A study of Mus musculus with 40 samples.

Results

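The genes described are 31 interferon-stimulated genes of the mouse: interferon-induced GTPases, antiviral effectors and the transcription factors that drive them. They were taken by gene symbol from a list chosen with earlier results of these data known. All 31 of 31 were present among the 32531 symbols of the count files. They were followed in ribosome-bound RNA of the accumbens nucleus, the ventral striatal region in which cocaine reward has been studied most. The RNA was immunopurified from adult Drd1-TRAP CP73 mice, in which regulatory sequence of Drd1, the D1 dopamine receptor gene, drives an EGFP-tagged ribosomal protein, Rpl10a. The pulldown therefore enriches RNA of D1 medium spiny neurons, and RNA of other cell types can still be carried along.

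Every mouse carried the tagged ribosome on an FVB/N-Swiss Webster background crossed to C57BL/6 for at least 9 generations, and every mouse had self-administered through an intravenous line with long access. The controls self-administered saline. The cocaine mice were labelled nonescalating or escalating, and the labels used here give no criterion, dose, sex or exact age. Tissue was taken 24 hours or about 1 month after self-administration. At 24 hours there were 6 saline, 9 nonescalating and 5 escalating libraries, and at 1 month 5, 11 and 4. Libraries are called by their label number, 1570 to 1609. Replicate numbers in the labels restart within the nonescalating groups. At 24 hours they run 1 to 6 (1576 to 1581) and 1 to 3 (1582 to 1584). At 1 month they run 1 to 6 (1595 to 1600) and 1 to 5 (1601 to 1605). The labels do not say what the 2 runs are, and both were pooled. Library 1595, from the nonescalating group at 1 month, held 5168 counts in all and 0 counts of every one of the 31 genes, and was left out, so that group enters with 10 libraries. The labels do not say that each library is a separate mouse or pool, so every p-value measures the spread between these libraries only.

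Interferons bind cell surface receptors and act through JAK kinases. Type I interferon acts through Stat2 and Irf9 on interferon-stimulated response elements, and interferon gamma acts on gamma-activated sites. The genes switched on in this way block viral translation, sense or degrade foreign RNA, or attack membranes around intracellular microbes. In the brain, endothelial cells, microglia and astrocytes are known for strong interferon responses, and neurons for weaker ones.

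The promoters carry the motif the set is known for, and 4 are printed because they belong to GTPase genes that the results turn on and to Isg15, the ubiquitin-like modifier. RefSeq promoter windows (250 bases before to 50 after the start, build GRCm38.p6) were available for 25 of the 31 genes. The core of the interferon-stimulated response element, GAAA followed by any 2 bases and again GAAA, was searched on both strands. It lay in a window of 17 of the 25 genes (68.0%), against 3.99% of all 27025 genes with a window. TTCNNNGAA, the gamma-activated site, lay in a window of 10 genes (40.0%), against 9.55% of all genes, and both motifs lay in windows of 7 (28.0%), against 0.540%. All 7 GTPase genes with a window held the response element, and 1 of the 4 transcription factor genes did. The printed sequences are the 200 bases before the RefSeq start, 5′ to 3′ on the gene's strand, with capitals marking this core, which reads TTTC, 2 bases and TTTC where it lies on the other strand. They lie at chr11:58199356-58199555 (Igtp, plus strand), chr11:58214777-58214976 (Irgm2, plus strand), chr3:142530136-142530335 (Gbp7, plus strand) and chr4:156200819-156201018 (Isg15, minus strand). In the GENCODE vM21 annotation none of the 4 touches an exon, and the Irgm2 stretch lies within the intronic part of a longer Irgm2 model.
Igtp: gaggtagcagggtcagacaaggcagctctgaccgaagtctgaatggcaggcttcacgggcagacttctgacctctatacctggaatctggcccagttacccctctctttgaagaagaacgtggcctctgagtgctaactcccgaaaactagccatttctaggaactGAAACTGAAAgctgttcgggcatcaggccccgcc
Irgm2: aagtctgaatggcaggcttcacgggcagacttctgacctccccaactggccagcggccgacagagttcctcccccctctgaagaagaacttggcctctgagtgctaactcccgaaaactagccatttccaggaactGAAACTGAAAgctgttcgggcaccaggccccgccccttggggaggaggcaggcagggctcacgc
Gbp7: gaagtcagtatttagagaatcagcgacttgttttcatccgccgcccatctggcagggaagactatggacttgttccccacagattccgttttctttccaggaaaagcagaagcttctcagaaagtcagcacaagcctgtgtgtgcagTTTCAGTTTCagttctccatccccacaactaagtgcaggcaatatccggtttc
Isg15: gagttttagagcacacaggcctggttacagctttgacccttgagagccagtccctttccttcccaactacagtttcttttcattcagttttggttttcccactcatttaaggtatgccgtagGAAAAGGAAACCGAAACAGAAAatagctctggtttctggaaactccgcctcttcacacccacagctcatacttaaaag
In Igtp and Irgm2, neighbours on chromosome 11, the response element has the same letters, and 222 of the 300 bases of their windows lie in shared runs of at least 10 bases. The element began 34 bases before the start in Igtp, 64 in Irgm2 and 53 in Gbp7. Isg15 held 3 overlapping matches, beginning 78, 72 and 66 bases before its start. A match describes the letters only and was not tested for binding.

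The 31 genes were low in these libraries. The 39 libraries held 3772630 to 33932469 counts (median 10484101), and a median of 27 of the 31 genes had at least 1 count in a library, with a range of 11 to 31. Levels are given in counts-per-million units (CPM), scaled by TMM factors. A count of 0 allows up to 3 counts, which is 0.0873 to 0.815 CPM by library. Per kilobase of exon, which allows genes to be compared, the median level over the 39 libraries was highest for Ifi27, a small membrane protein, at 3.32 CPM per kilobase. Stat2, the transcription factor of the type I pathway, followed at 3.26 and Trim25, the ubiquitin ligase that activates the RNA sensor Ddx58, at 2.60. The next genes were Gbp7 at 1.22 and Igtp at 1.04. Ifi35, a partner of the interferon-induced protein Nmi, and Oas1a, a synthetase of the oligoadenylates that activate RNase L, had a median of 0. Stat2, Trim25, Irf9 and the kinase Eif2ak2 were counted in every one of the 39 libraries, while Isg15 was counted in 22.

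A few libraries stood apart. Summed over the 31 genes, the highest libraries were 1574 (1253 CPM, saline at 24 hours), 1589 and 1588 (681 and 622 CPM, both escalating at 24 hours), 1573 (405 CPM, saline at 24 hours), 1609 (309.9 CPM, escalating at 1 month) and 1604 (295 CPM, nonescalating at 1 month). The group medians lay between 85.3 CPM, in the saline group at 1 month, and 242 CPM, in the escalating group at 24 hours. The same 6 libraries were the 6 highest for the summed level of 14 vascular markers, the genes of endothelial cells and pericytes, at 1130 to 3727 CPM. The remaining libraries lay at 939 CPM or less. Genes of microglia shared 3 of their 6 highest libraries with the 31 genes, and genes of D1 neurons shared none. The 5 libraries with the lowest summed D1 neuron markers (1573 at 331 CPM, then 1589, 1574, 1609 and 1604 at 1408 to 1685 CPM) were among the 6, and the sixth, 1588, stood at 2032 CPM. Microglia markers were sparse: Tmem119, C1qa and Trem2 were at 0 in 29, 32 and 33 of the 39 libraries, and the 12 markers summed to between 0 and 81.3 CPM. Among 11 leukocyte markers, Nkg7 and S100a8 were at 0 in every library, and Cd4 made up 98.9% of the summed level. In RNA pulled down from whole tissue, fewer cells of a type, less RNA per cell and less of its RNA carried along cannot be told apart. Entries with no gene feature made up 70.3% of counted entries in 1573, 51.1% in 1574 and 40.2% in 1589. They made up 33.7% in 1604, 32.6% in 1609 and 28.9% in 1588. The median of the 39 libraries was 25.5%, and 1582, not among the 6, stood at 40.4%. Library 1573 held the fewest counts (3772630) and 1574 the fewest genes with a count (11375). The parts of vascular RNA and of library quality in the levels and differences of the 31 genes were not tested.

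**Figure D1:**
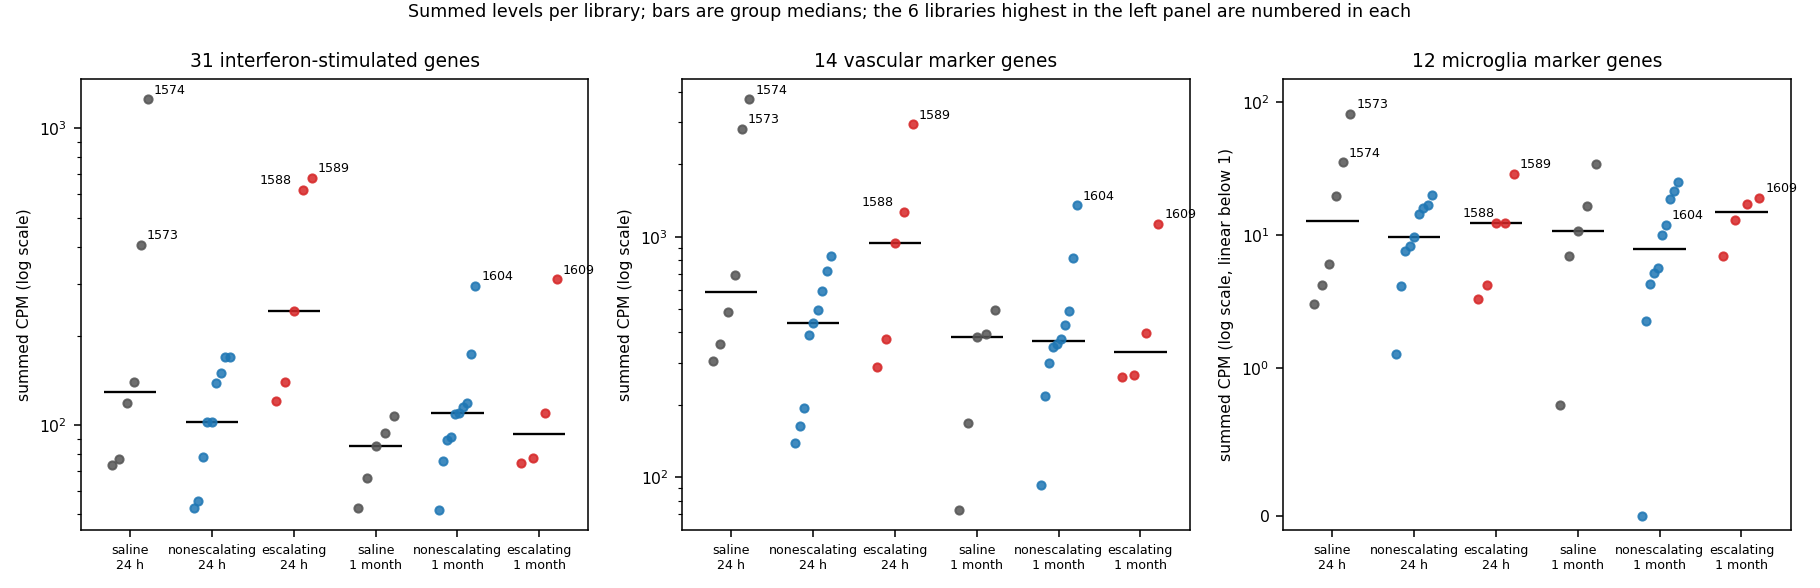
Summed CPM per library (vertical axis, log scale, linear below 1 for microglia) of the 31 interferon-stimulated genes, 14 vascular markers and 12 microglia markers in the 6 groups; points are libraries and bars group medians. The 6 numbered libraries, highest for the 31 genes at 295 to 1253 CPM, are also the 6 highest for vascular markers, and rank 1 to 19 of 39 for microglia markers.

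The high libraries did not carry the same genes. Library 1589 held 30 of the 31 genes at one of their 6 highest levels, 1588 held 18, 1574 held 17, 1609 held 16, 1573 held 15 and 1604 held 12. Library 1574 gave the highest level of 11 genes, among them Iigp1 at 245 CPM, Stat2 at 233 CPM and Gbp2 at 202 CPM, yet Isg15, Usp18, Bst2, Rsad2, Oas1a, Ifit3 and Ifi35 were at 0 there. Library 1604 instead gave the highest Trim25 (82.2 CPM), Oas1a (17.7 CPM) and Ifi35 (16.8 CPM); Gbp2 stood at 7.42 CPM there, the second highest of its group. Library 1588 gave the highest Igtp (96.4 CPM) and Ifi27 (77.8 CPM). Some peaks lay outside the 6 libraries: Eif2ak2, which halts translation on double-stranded RNA, reached 53.9 CPM in library 1582, and Ifit1 reached 21.1 CPM in library 1596.

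**Figure D2:**
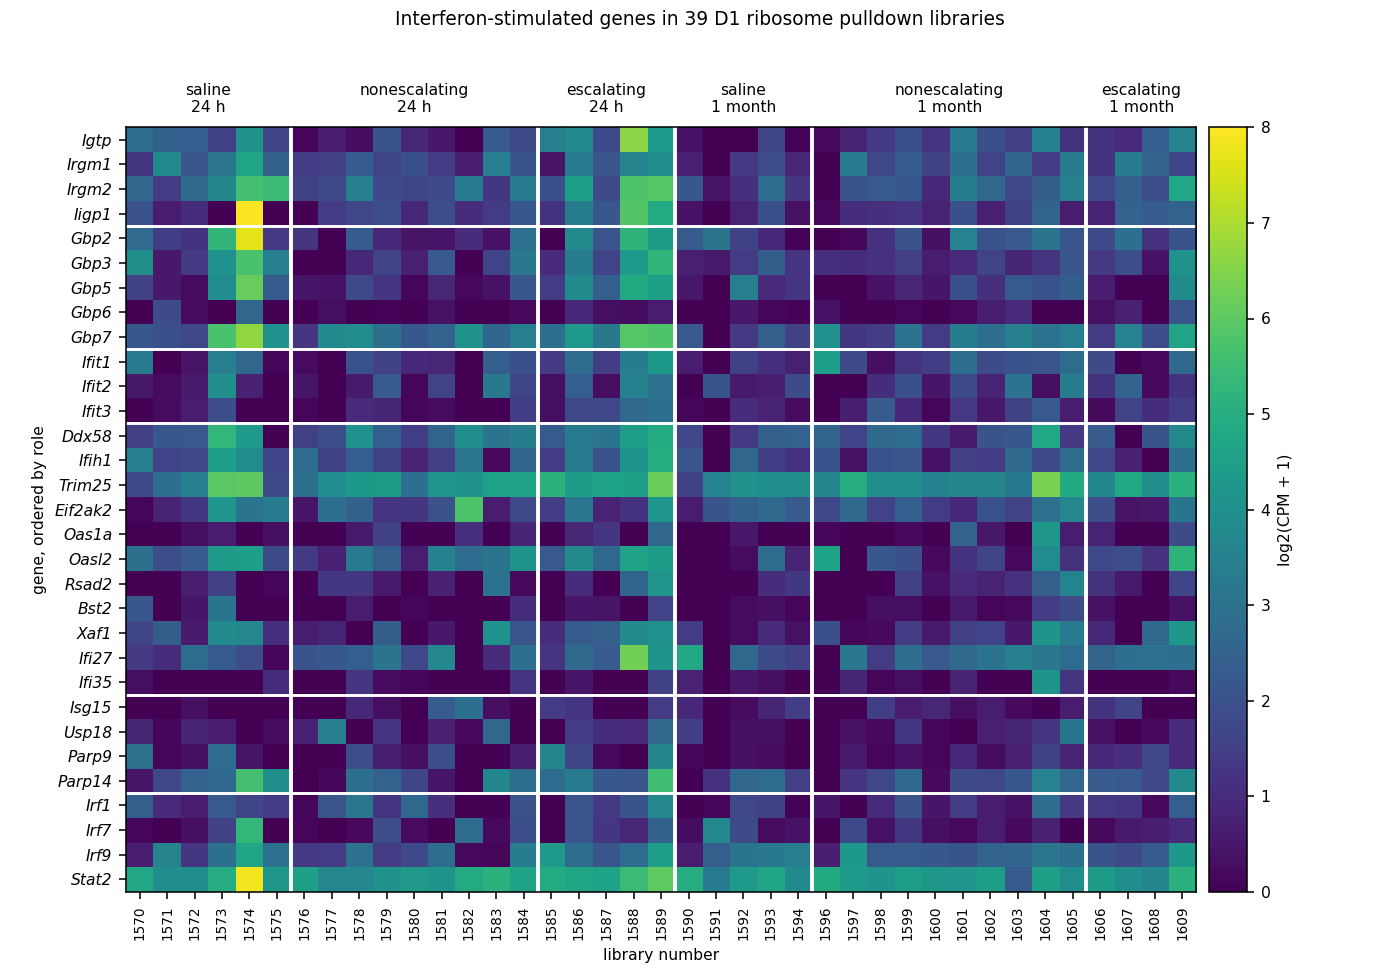
Level of each of the 31 genes (rows, ordered by role) in each of the 39 libraries (columns, by group) as log2(CPM + 1). In library 1574 Iigp1 (245 CPM) and Gbp2 (202 CPM) are bright while Isg15 and Rsad2 are at 0, and library 1589 is bright across most rows.

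Estimates for escalating against nonescalating mice were mostly above 0 at 24 hours after self-administration, and the 4 largest estimates were those of the GTPases Igtp, Gbp5, Iigp1 and Gbp2. In edgeR's quasi-likelihood test the adjusted p was above 0.05 for the 27 tested members and for all 14137 genes tested (0.0% passed). DESeq2 called 1 member (0.0212% of all genes) and limma with sample weights called 2 (0.290%). At an unadjusted p under 0.05, 10 of the 27 were higher in escalating mice and 0 lower, where 2.36% of all genes were higher and 0.792% lower. The log2 fold change was above 0 for 24 of the 27, with a median of 1.79 against -0.03 over all genes. The 10 were 7 GTPases (Igtp, Irgm2, Iigp1, Gbp2, Gbp3, Gbp5 and Gbp7), and Ifi27, Ifit3 and Ifih1. Of 14 vascular markers, 8 were higher at an unadjusted p under 0.05 and 0 lower, with a median log2 fold change of 1.43. The transporter Abcb1a was the marker with the smallest p (log2 fold change 1.59 ± 0.54 SE). The 7 microglia markers tested had a median of 0.21, with none under 0.05. Summed astrocyte markers went the other way, at 244 to 473 CPM (median 254) in escalating and 304 to 1327 CPM (median 536) in nonescalating libraries. Without libraries 1588 and 1589, a choice made after seeing the data, 31 members were tested, 2 were higher at an unadjusted p under 0.05 (0.356% of all genes), 0 lower (0.168%) and the median was 0.44. Leaving out 1573 and 1574 instead gave 12 of 29 higher (3.33% of all genes), 0 lower (1.76%) and a median of 1.72. With the replicate number as a block 5 were higher (0.870%) and 0 lower (0.389%).

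Igtp, an immunity-related GTPase that regulates its effector relatives, showed the widest gap. In the escalating libraries 1585 to 1589 it stood at 9.62, 12.2, 2.47, 96.4 and 19.2 CPM, and in the nonescalating libraries between 0 and 3.91 CPM (median 0.542). Every escalating library other than 1587 lay above all 9 nonescalating ones. The log2 fold change was 4.37 ± 0.92 SE (edgeR adjusted p = 0.718, unadjusted p = 5.68e-05). DESeq2 gave Igtp an adjusted p of 0.00178 and limma with sample weights 0.0188. Without 1588 and 1589 the log2 fold change was 2.61 ± 1.04 SE (edgeR unadjusted p = 0.0195). In GENCODE vM21 the Igtp gene, chr11:58199556-58207591 on the plus strand, overlaps a model of Irgm2 on the same strand, and the counts of both genes are uncertain for that reason.

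Irgm2, which restrains other immunity-related GTPases, stood at 2.86, 21.8, 2.47, 55.1 and 58.8 CPM in the escalating libraries and at 1.46 to 10.2 CPM (median 2.38) in the nonescalating ones. The 2 groups overlapped, with 3 escalating libraries above all others (2.60 ± 0.77 SE, edgeR adjusted p = 1.00). Iigp1, an effector GTPase that coats vacuoles of intracellular parasites, stood at 1.26, 9.60, 3.53, 56.5 and 28.8 CPM against 0 to 3.49 CPM (3.41 ± 1.31 SE). Its relative Irgm1, known from defence against mycobacteria, gave 1.27 ± 0.78 SE.

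The guanylate-binding proteins are large GTPases that break open such vacuoles. Gbp5, Gbp7, Gbp3 and Gbp2 lie side by side at chr3:142493978-142638008. Gbp5, which also promotes inflammasome assembly, stood at 1.60, 13.1, 4.35, 28.3 and 22.02 CPM in escalating mice and at 0.0885 to 3.49 CPM (median 0.367) in nonescalating mice. Escalating library 1585 alone lay within the nonescalating range. The log2 fold change was 3.70 ± 1.03 SE (edgeR adjusted p = 1.00; limma with sample weights 0.0188), and 2.60 ± 1.16 SE without 1588 and 1589. Gbp2 was at 0, 12.6, 3.29, 35.8 and 20.2 CPM against 0 to 6.98 CPM (median 0.853), and gave 3.03 ± 1.13 SE. For Gbp3 the escalating values were 0.916, 9.36, 2.12, 18.95 and 37.8 CPM against 0 to 8.04 CPM, a log2 fold change of 2.78 ± 1.07 SE. In both genes 3 escalating libraries, 1586, 1588 and 1589, exceeded every nonescalating one. Gbp7 was at 6.64, 18.6, 8.47, 57.7 and 54.4 CPM against 1.28 to 16.2 CPM (1.80 ± 0.74 SE). Gbp6, encoded on chromosome 5, stood at 0.880 CPM or less in both groups. With all libraries in the fit it was too low to be tested within a time, as were Oas1a, Ifi35 and tetherin (Bst2).

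Among genes that act on viral RNA, Ifit3, a partner of the cap-binding Ifit1, was at 0.229, 2.32, 2.35, 5.31 and 6.80 CPM in escalating mice and at 0 to 1.82 CPM in nonescalating mice (2.87 ± 1.28 SE). Ifih1, a sensor of long double-stranded RNA, was at 1.60, 8.72, 3.06, 16.5 and 30.2 CPM against 0.153 to 7.92 CPM (1.79 ± 0.81 SE). Ifi27 was at 1.37, 5.60, 3.88, 77.8 and 16.5 CPM against 0 to 12.1 CPM (2.20 ± 0.91 SE), and its log2 fold change turned to -0.32 without 1588 and 1589. Trim25 was at 34.0, 20, 23.9, 21.7 and 71.4 CPM against 6.64 to 23.6 CPM (1.07 ± 0.62 SE), so that its groups overlapped. The sensor Ddx58, the oligoadenylate synthetase relative Oasl2, viperin (Rsad2) and Xaf1, a binder of an inhibitor of apoptosis, gave log2 fold changes of 0.97 to 1.82, none at an unadjusted p under 0.05. Eif2ak2 gave -0.56. Ifit1 and Ifit2, which block translation of viral RNA, gave 2.16 and 1.16.

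The transcription factors and the Isg15 system had medians of 0.75 and 0.84 between escalating and nonescalating mice. Of 4 transcription factors none had an unadjusted p under 0.05: Irf9 gave 1.72, Stat2 0.82, Irf1 0.68 and Irf7, the amplifier of type I interferon genes, 0.57. Stat2 stood at 29.2, 25.3, 24.1, 43.1 and 63.7 CPM against 11.96 to 33.3 CPM. Isg15 gave -0.57 and Usp18, the protease that removes Isg15 from proteins, -0.18. The ADP-ribosyltransferases Parp9 and Parp14 gave 2.69 and 1.87, with Parp14 at 5.96, 8.80, 3.65, 3.44 and 46.1 CPM against 0 to 11.7 CPM.

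**Figure D3:**
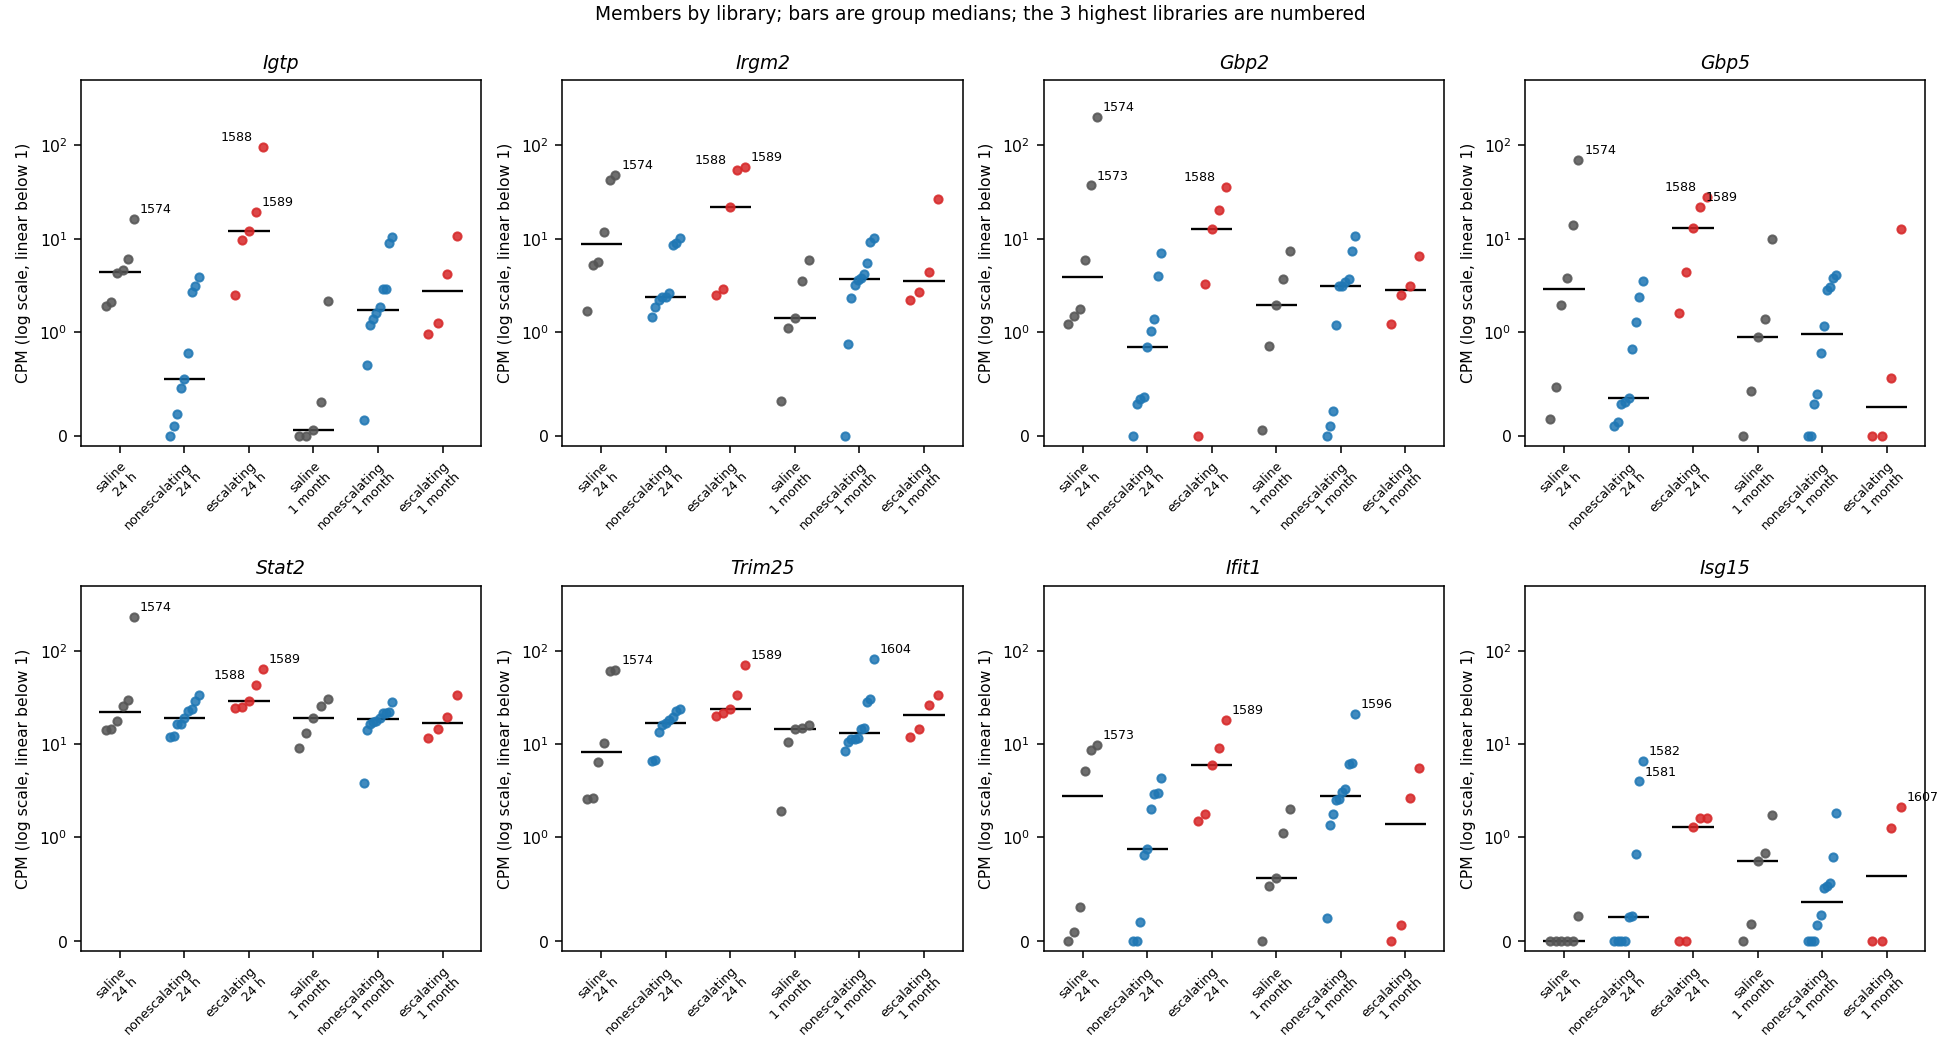
CPM (log scale, linear below 1) of 8 members in each of the 39 libraries by group, with bars for group medians and the 3 highest libraries numbered. Igtp and Gbp5 lie higher in the 24 hour escalating group (medians 12.2 and 13.1 CPM) than in the nonescalating group (0.542 and 0.367 CPM), while Isg15 is near 0 in most libraries.

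Compared with saline at 24 hours, nonescalating mice had lower estimates for the GTPases. The median over the members and the estimates of Gbp2, Gbp5 and Iigp1 depended on saline libraries 1573 and 1574. At an unadjusted p under 0.05, 9 of 27 members were lower in nonescalating mice (7.72% of all genes) and 1, Isg15, was higher (2.25% of all genes), with a median log2 fold change of -1.33. None passed the adjusted threshold in edgeR (0.0% of all genes), while DESeq2 called Gbp2, Gbp5 and Iigp1 lower (adjusted p of 0.0223, 0.0131 and 0.0446; 1.12% of all genes were called). A single edgeR fit of all 39 libraries called Gbp2 and Iigp1 (0.828% of all genes). The 9 were 8 GTPases and Stat2. Gbp2 stood at 1.23 to 202 CPM in the saline libraries, with a median of 3.84, and gave a log2 fold change of -4.58 ± 1.16 SE (edgeR adjusted p = 0.222). Gbp5 stood at 0.164 to 70.0 CPM with a median of 2.88 (-3.84 ± 1.01 SE), and Iigp1 at 0 to 245 CPM with a median of 0.814 (-4.49 ± 1.32 SE). The highest value of each was that of library 1574, and the saline and nonescalating ranges overlapped in all 3 genes. Igtp, also among the 8 GTPases, stood at 1.90 to 16.3 CPM in saline libraries (median 4.43). In nonescalating libraries it stood at 0 to 3.91 CPM (median 0.542), and its log2 fold change was -2.13. Its highest saline value was that of 1574 and its lowest that of 1573. Isg15 was at 0 in 5 of the 6 saline libraries and at 0.246 CPM in the sixth, against 0 to 6.64 CPM in nonescalating mice, so the size of its log2 fold change (4.47 ± 1.76 SE) depends on how 0 is treated.

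Without 1573 and 1574 the median over 29 tested members was 0.41, with 1 lower (2.59% of all genes) and 2 higher (2.65%) at an unadjusted p under 0.05. Gbp2 then gave -0.60 ± 1.06 SE, Gbp5 -0.63 ± 0.94 SE and Iigp1 0.65 ± 1.00 SE. Leaving out 1574 alone moved the median to -0.54 and turned Iigp1 to 0.92. With all libraries in the fit, all 14 vascular markers had estimates below 0 in nonescalating against saline mice, 11 of them at an unadjusted p under 0.05 (7.72% of all genes), with a median of -1.68. Of 8 oligodendrocyte markers 4 were lower at that p (median -1.54), and of 10 astrocyte markers 4 (median -1.26). Libraries 1573 and 1574 were the highest of all for both, at 3380 and 2309 CPM of summed astrocyte markers and 1671 and 1239 CPM of oligodendrocyte markers, where no other library passed 1327 and 685 CPM. The part of these cell types in the result was not tested.

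Escalating mice, set against the same saline libraries at 24 hours, gave 3 of 27 members higher at an unadjusted p under 0.05 (1.41% of all genes) and 0 lower (3.74%). None passed the adjusted threshold (0.0%), and the median log2 fold change was 0.46. The 3 were Ifi27 (3.03 ± 1.07 SE), Igtp (2.23 ± 0.99 SE) and Isg15 (3.90 ± 1.80 SE), each with an edgeR adjusted p of 0.953 or 0.955. Saline values were 0.0880 to 6.15 CPM for Ifi27 (median 2.11) and 1.90 to 16.3 CPM for Igtp (median 4.43). Both overlapped the escalating values. Isg15 held 0 to 3 counts in the saline libraries and 0 to 16 in the escalating ones, so the size of its estimate depends on how 0 is treated. Without 1573 and 1574, 12 of 29 members were higher (3.40% of all genes), 0 lower (2.43%), and the log2 fold change was above 0 for all 29, with a median of 1.98. The share of all genes above 0 is not given beside it. DESeq2 without 1573 and 1574 called Trim25 higher than in saline mice (0.0765% of all genes were called), and called Igtp and Gbp5 higher than in nonescalating mice (0.0209%). Without 1588 and 1589 the edgeR log2 fold change against saline was below 0 for most members, with a median of -0.76. The 14 vascular markers had a median of -0.26 with all libraries, none under 0.05 in either direction, while 5 of 8 oligodendrocyte markers (median -2.19) and 4 of 10 astrocyte markers (median -2.05) were lower at an unadjusted p under 0.05.

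At 1 month after self-administration the estimates between escalating and nonescalating mice went in both directions. They were above 0 for all 8 GTPases tested, with medians of 0.75 in both GTPase families, and below 0 for all 3 Ifit genes, with a median of -0.37. They were above 0 for 3 of 4 transcription factors and 3 of 4 genes of the Isg15 system and PARPs. Of 8 genes of RNA sensing and antiviral effectors 3 were above 0. Between escalating and nonescalating mice, 1 of 27 members, Gbp3, was higher at an unadjusted p under 0.05 (1.04% of all genes) and 0 were lower (1.28%). None passed the adjusted threshold (0.0%), and the median log2 fold change was 0.13. Leaving out 1 library at a time moved that median between -0.50 and 0.39. Gbp3 stood at 1.53, 2.77, 0.301 and 15.7 CPM in escalating libraries 1606 to 1609 and at 0.564 to 3.41 CPM (median 1.16) in nonescalating ones. Library 1609 alone lay above the nonescalating range, for a log2 fold change of 1.81 ± 0.81 SE, which was 0.089 ± 0.98 SE without 1609. Irgm2 was at 2.23, 4.40, 2.71 and 26.8 CPM against 0 to 10.2 CPM (1.07 ± 0.83 SE), and its estimate turned to -0.46 without 1609. Iigp1 was at 0.695, 4.73, 4.07 and 4.88 CPM against 0.0744 to 5.02 CPM (1.24 ± 0.97 SE). Vascular markers had a median of 0.17.

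**Figure D4:**
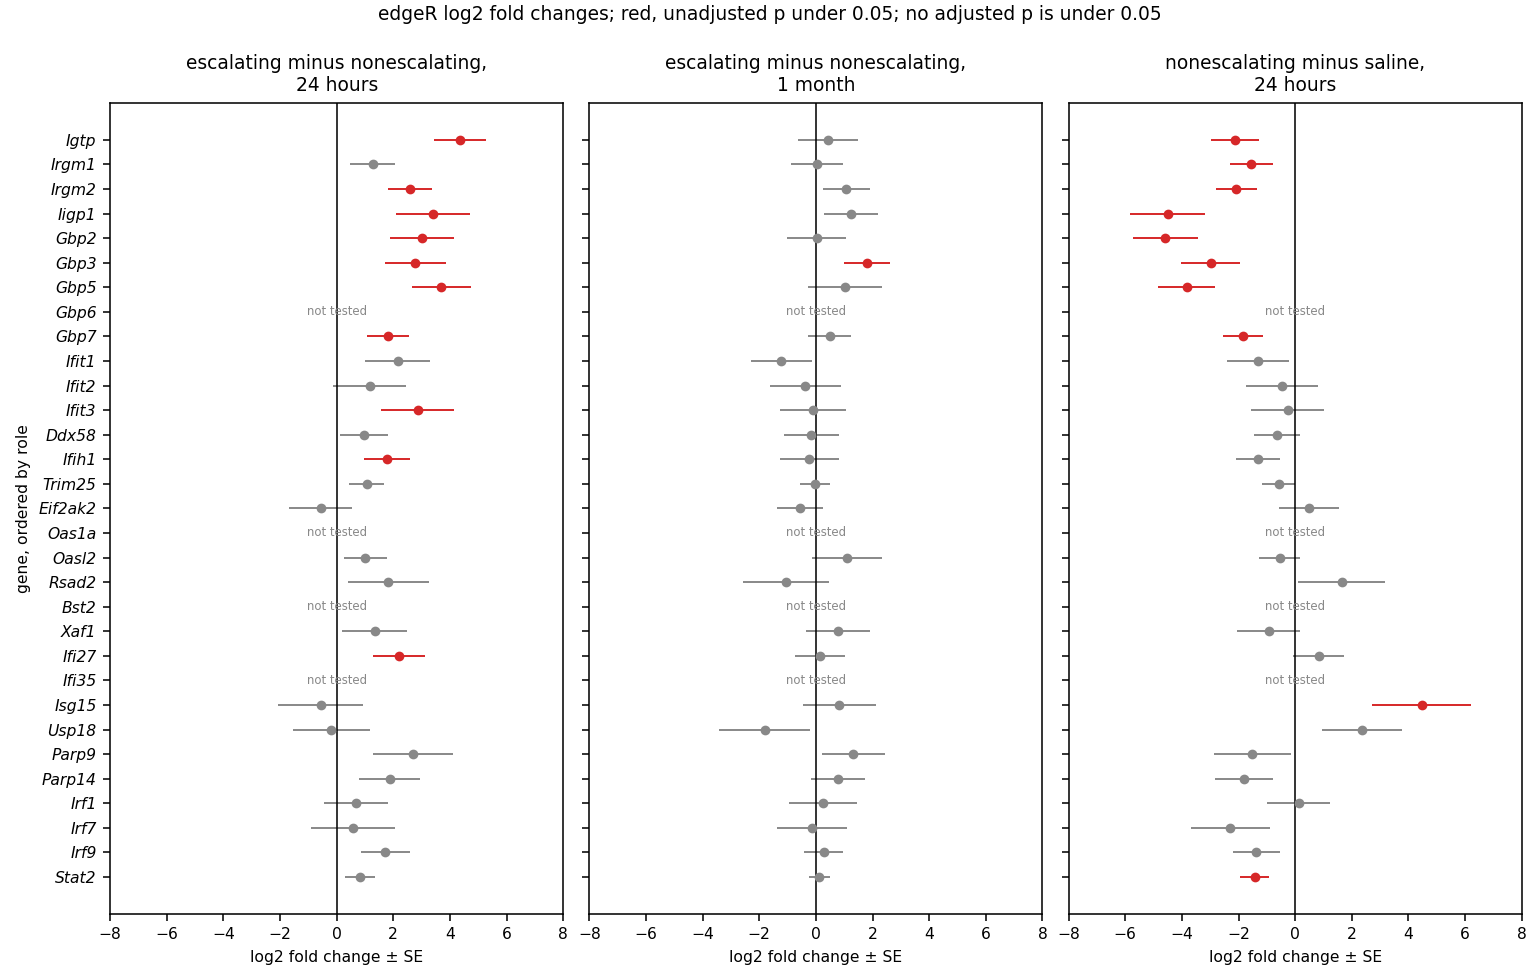
Log2 fold change ± SE (horizontal axis, edgeR) of each member in 3 comparisons; red marks an unadjusted p under 0.05, and no adjusted p was under 0.05. The GTPases at the top lie right of 0 for escalating minus nonescalating at 24 hours (Igtp 4.37), closer to 0 but still to its right at 1 month (Igtp 0.43, Gbp3 1.81), and left of 0 for nonescalating minus saline at 24 hours (Igtp -2.13).

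Both cocaine groups at 1 month share the 5 saline libraries as controls. In nonescalating mice 4 of 27 members were higher (2.55% of all genes) and 1 lower (1.97%) at an unadjusted p under 0.05, with a median of 0.82. In escalating mice 4 were higher (1.76%) and 0 lower (2.60%), with a median of 0.93. None passed the adjusted threshold in either comparison (0.0%). Igtp stood at 0.320, 0, 0, 2.15 and 0.0582 CPM in saline libraries 1590 to 1594, at 0.149 to 10.5 CPM (median 1.71) in nonescalating and at 1.25, 0.978, 4.22 and 10.7 CPM in escalating libraries. Saline library 1593 lay within both cocaine ranges and the 4 other saline libraries lay below every escalating one. The log2 fold change of Igtp was 2.64 ± 1.15 SE in nonescalating mice (edgeR adjusted p = 0.986) and 3.07 ± 1.28 SE in escalating mice (adjusted p = 1.00). Vascular markers had medians of 0.63 and 0.89, with 1 of 14 higher at an unadjusted p under 0.05 in each.

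Ifit1 in nonescalating mice ranged from 0.226 to 21.1 CPM (median 2.81), against 0.533, 0, 2.01, 1.12 and 0.611 CPM in saline mice (2.48 ± 1.07 SE). Irf7 went the other way, at 0 to 2.44 CPM against 0.213, 12.4, 2.60, 0.172 and 0.320 CPM (-2.38 ± 1.06 SE). Saline libraries 1591 and 1592 held the high Irf7 values. In escalating mice Parp9 was at 0.834, 1.14, 2.26 and 0.945 CPM, above all 5 saline libraries at 0.252 CPM or less (3.53 ± 1.41 SE). These were 6, 7, 15 and 6 counts, against saline values of 0 to 3 counts, within what a count of 0 allows. The size of the Parp9 estimate thus depends on how 0 is treated, and the share of all genes that separate so was not counted. Xaf1 was at 0.834, 0, 5.73 and 17.6 CPM against 1.60, 0, 0.168, 0.947 and 0.291 CPM (3.33 ± 1.40 SE). Gbp7 was higher at an unadjusted p under 0.05 in both cocaine groups (1.62 ± 0.77 SE and 2.11 ± 0.89 SE).

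In saline mice most members had lower estimates at 1 month than at 24 hours, and libraries 1573 and 1574 are part of that comparison. Of the 31 members, 13 were lower at 1 month (9.49% of all 15579 genes tested) and 1, Isg15, was higher (3.53%) at an unadjusted p under 0.05, with a median of -2.04. None passed the adjusted threshold in edgeR (0.0%), while DESeq2 called 8 lower (3.69% of all genes were called). Gbp7 had the smallest p: it stood at 2.30 to 101 CPM (median 9.60) at 24 hours and at 3.73, 0, 1.51, 4.30 and 1.89 CPM at 1 month (-3.65 ± 0.94 SE, edgeR adjusted p = 0.121). Iigp1 gave -5.59 ± 1.53 SE and Irgm2 -2.94 ± 0.96 SE. Isg15 held 0 to 3 counts in the saline libraries at 24 hours and 0 to 60 at 1 month. The size of its estimate therefore depends on how 0 is treated. The saline values of Iigp1 at 1 month were 0.320, 0, 0.755, 2.84 and 0.291 CPM, and those of Irgm2 3.52, 0.336, 1.09, 5.94 and 1.43 CPM against 1.69 to 48.2 CPM at 24 hours. Without 1573 and 1574, 4 of 30 members were lower (3.35% of all genes), 1 was higher (2.54%) and the median was -0.33, with Iigp1 at -0.47 ± 1.09 SE and Irgm2 at -2.49 ± 0.99 SE. Estimates of 13 of the 14 vascular markers were below 0 at 1 month, 11 of them at an unadjusted p under 0.05 (9.49% of all genes), with a median of -2.11. Of 8 oligodendrocyte markers 5 were lower at that p (median -2.06), and of 10 astrocyte markers 4 (median -1.08).

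In nonescalating mice no member had an unadjusted p under 0.05 between the times, and the median was 0.29 (1.39% of all genes were higher, 3.25% lower and 0.0% passed the adjusted threshold; DESeq2 called 0 members as well). The 3 smallest p belonged to Ifi35 (2.53 ± 1.39 SE), Ifit1 (1.59 ± 0.93 SE) and Oas1a (2.23 ± 1.37 SE). Ifi35 stood at 0 to 1.34 CPM at 24 hours and 0 to 16.8 CPM at 1 month, and Oas1a at 0 to 1.95 CPM and 0 to 17.7 CPM. The highest value of both was that of library 1604.

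In escalating mice the estimate was below 0 at 1 month for 30 of 31 members, with a median of -1.51, and 2 members were lower at an unadjusted p under 0.05 (1.27% of all genes; 0.449% were higher). Igtp gave -2.71 ± 1.24 SE, Iigp1 -2.45 ± 1.46 SE and Ifih1 -2.33 ± 1.15 SE, each with an edgeR adjusted p of 1.00 (0.0% of all genes passed). Ifih1 at 1 month stood at 2.23, 0.652, 0 and 6.61 CPM. Without 1588 and 1589 the median was -0.30. The vascular markers had a median of -1.13, with none under 0.05.

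The change of the escalating to nonescalating difference from 24 hours to 1 month was tested as an interaction. It was below 0 for 28 of 31 members, with a median of -1.47, and 3 members had an unadjusted p under 0.05 (1.37% of all genes were lower and 0.931% higher; 0.0% passed the adjusted threshold). These were Igtp (-3.96 ± 1.48 SE), Ifi35 (-5.76 ± 2.74 SE) and Ifit1 (-3.40 ± 1.69 SE), each with an edgeR adjusted p of 1.00. Ifi35 had 0, 0, 0 and 1 counts in the escalating libraries at 1 month. It had 77 counts in nonescalating library 1604 and at most 8 in the others of that group. Ifit1 had 284 counts in nonescalating library 1596 and at most 50 in the others of that group. Without 1588 and 1589 none of the 31 had an unadjusted p under 0.05 (0.783% of all genes were lower and 0.513% higher) and the median was -0.23. Vascular markers had a median of -1.23.

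Genes of the same pathway outside the 31 were read in the comparison of escalating with nonescalating mice at 24 hours, against the 2.36% of all genes that were higher. Of 44 other interferon-induced genes, 28 were tested, 11 were higher and 0 lower at an unadjusted p under 0.05, and the median log2 fold change was 1.72. Ifi44 stood at 1.25 to 10.7 CPM in escalating and 0 to 0.835 CPM in nonescalating mice, and Oas2 at 0 to 10.8 CPM and 0 to 0.774 CPM. Ifi44 did not overlap between the groups, but its nonescalating values were low. The share of all genes that separate in this way was not counted. Of 14 genes of class I antigen presentation, 13 were tested and 3 were higher, with all 13 estimates above 0 and a median of 1.70. H2-K1, a class I heavy chain whose close copies may share its reads, stood at 0.687 to 143 CPM against 4.12 to 18.9 CPM. The peptide transporter Tap1 stood at 0.229 to 18.2 CPM against 0 to 3.42 CPM. Of 20 interferons, receptors and JAK-STAT genes, 13 were tested and 1, the interferon gamma receptor gene Ifngr1, was higher (2.07 ± 0.86 SE), with a median of 0.32. Of 15 nucleic acid sensors and adaptors upstream of interferon, 7 were tested and 1, Tlr3, was higher (1.79 ± 0.82 SE), with a median of -0.12.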

How the data were processed

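Ribosome-bound RNA from 40 immunopurified libraries of the accumbens nucleus was sequenced. Each deposited file holds raw counts per gene symbol; reads were aligned with STAR 2.0.0e to mm10 and counted with HTSeq, per the submitters' processing notes. Which gene annotation and which strand option they used is not given in the sources used here. Rows that name no gene (no_feature, 18.7 to 70.3% of all counted entries; ambiguous, 1.76 to 4.93%) stayed out of library sizes and tests. The 31 genes and the other lists were chosen with earlier results of these data known. Paralogous families (Gbp, Ifit, Oas, Irgm and H2 genes) and overlapping pairs may share reads.

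Counts were tested with edgeR 4.0.16 in R 4.3.3: filterByExpr with a minimum count of 10, TMM factors, robust quasi-likelihood fits and two-sided tests, with Benjamini-Hochberg adjustment over all genes tested and a threshold of 0.05. Each time point was fitted on its own (20 and 19 libraries); contrasts across times used all 39. The SE is the log2 fold change divided by the root of the F statistic. Counts of estimates above or below 0, for the members and the other lists, are given without the share of all genes on that side. Of 122 library pairs within groups, all differed by more than sampling noise (chi-square per gene 12.1 to 291). The pipeline was tested on simulated data. Alternatives were DESeq2 1.42.0, limma 3.58.1 with voom sample quality weights, other size factors, no low-count filter, a replicate block, and left-out libraries. Values in every library, or the lowest, median and highest, are given for members with an unadjusted p under 0.05 between escalating and nonescalating mice at 24 hours, the 3 members with the smallest p in every other contrast, and the member with the highest mean CPM of each role. Of other lists, the 2 genes with the smallest p are eligible. Sequences come from RefSeq (GRCm38.p6) and gene positions from GENCODE vM21 (GRCm38), which may differ from the annotation the authors used.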

Additional observations from a re-analysis of the deposited data

Results flagged for a closer look

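In 41 of 126 group values one library lay far from the others of its group, by the gap to its neighbour over the range of the group. For normally distributed values chance gives about 1 in 20; these values are skewed and hold many zeros, so that rate does not apply to them. Of these, 9 were in library 1574 (saline at 24 hours), where the 31 genes summed to 1253 CPM. Iigp1 was at 245 CPM there, Stat2 at 233, Gbp2 at 202, Gbp5 at 70.0, Gbp3 at 51.0, Parp14 at 47.5, Irf7 at 37.9 and Igtp at 16.3. In the same group Ifit3 was at 2.72 CPM in 1573, Ifi35 at 1.06 CPM in 1575 and Isg15 at 0.246 CPM in 1572, which is 3 counts against 0 in the others and within what a count of 0 allows. In escalating mice at 24 hours library 1588 held Igtp at 96.4 CPM and Ifi27 at 77.8 CPM, and library 1589 held Trim25 at 71.4, Parp14 at 46.1, Oas1a at 5.29 and Ifi35 at 1.94 CPM. In nonescalating mice at 24 hours Xaf1 was at 15.9 CPM in 1583, Gbp3 at 8.04 CPM in 1584 and Irf7 at 6.13 CPM in 1582.

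At 1 month, library 1604 (nonescalating) summed to 295 CPM, with Trim25 at 82.2, Oas1a at 17.7, Ifi35 at 16.8, Parp14 at 10.7 and Parp9 at 1.96 CPM. In the same group Ifit1 was at 21.1 CPM in 1596 and Isg15 at 1.81 CPM in 1598. Library 1609 (escalating) summed to 309.9 CPM, with Irgm2 at 26.8, Gbp3 at 15.7, Parp14 at 13.2, Gbp5 at 12.8 and Ifi35 at 0.157 CPM, the last being 1 count against 0 in the others, within what a count of 0 allows. In saline mice Ifi27 was at 26.8 CPM in 1590 and Irf7 at 12.4 CPM in 1591. Gbp5 was at 9.82 CPM and Oas1a at 0.419 CPM in 1592, and Iigp1 was at 2.84 CPM and Igtp at 2.15 CPM in 1593.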

How the results depend on the processing

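With edgeR and all libraries no member passed the adjusted threshold in any of the 10 contrasts, and 362 of the 371 alternative counts were also 0. The others came from these settings. In nonescalating against saline mice at 24 hours DESeq2 called 3 members (Gbp2, Gbp5 and Iigp1, lower) and one fit of all 39 libraries called 2 (Gbp2 and Iigp1). In escalating against saline mice at 24 hours DESeq2 without 1573 and 1574, added after seeing the data, called 1 (Trim25, higher by 2.68). In escalating against nonescalating mice at 24 hours DESeq2 called 1 (Igtp), limma with sample weights 2 (Gbp5 and Igtp) and DESeq2 without 1573 and 1574 2 (the same pair). In saline mice between the times DESeq2 called 8 (Gbp2, Gbp3, Gbp7, Igtp, Iigp1, Irgm1, Irgm2 and Stat2, lower), and leaving out 1 library at a time called 0 to 1 (Gbp7, without 1571 or without 1572). DESeq2 gave 1 member no adjusted p in each contrast within a time.

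Direction turned in 10 of 1327 alternative values of named members. In nonescalating against saline mice limma with sample weights gave 0.48 for Gbp5 and 0.93 for Iigp1; Iigp1 was 0.92 without 1574, 0.65 without 1573 and 1574, and 0.66 in DESeq2 without both. Ifi27 in escalating against nonescalating mice at 24 hours was -0.32 without 1588 and 1589, a setting added after seeing the data, and Irgm2 at 1 month was -0.46 without 1609. Limma with sample weights gave -0.30 for Ifi35 and -0.044 for Oas1a in nonescalating mice between the times. The cause was not tested. Without 1573 and 1574 the median of the members was 0.41 in nonescalating and 1.98 in escalating against saline mice at 24 hours, and -0.33 in saline mice between the times; without 1588 and 1589 it was 0.44 in escalating against nonescalating mice. Leaving out 1 library at a time moved the median for escalating against nonescalating mice at 24 hours between 0.95 and 1.95. The number higher at an unadjusted p under 0.05 moved between 5 and 15. Of all genes, 2.36% were higher at that p with all libraries and 0.356% without 1588 and 1589. The share thus also moves with the libraries left out, and it is not given for each single library.

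Same-numbered libraries of different groups correlated at -0.200 to 0.251 (22 pairs, 24 hours) and -0.109 to 0.349 (20 pairs, 1 month). Differently numbered ones correlated at -0.312 to 0.364 (107 pairs) and -0.371 to 0.279 (90 pairs). Medians lay between -0.008 and 0.032, and libraries were not treated as pairs. The value of 0.349 was that of 1604 and 1609. The 6 libraries highest for the 31 genes are numbered 4 (1573, 1588, 1604, 1609) or 5 (1574, 1589). So are 1579, 1580, 1593, 1594, 1598, 1599 and 1605, which are not among the 6. What the number stands for was not tested. With the replicate block 0 members were called in every contrast. At 24 hours the median was then 1.34 for escalating against nonescalating mice, with 5 at an unadjusted p under 0.05, and -0.54 for nonescalating against saline mice. With all libraries in the fit Gbp6, Oas1a, Bst2 and Ifi35 were tested only across times. Their medians over the 39 libraries were 0.0799, 0, 0.0885 and 0 CPM, although Oas1a reached 81 and Ifi35 77 counts in library 1604.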

Other observations

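Of 13521 genes compared, those whose CPM followed the mean log2 level of the 31 genes most closely over the 39 libraries were Caskin2 (Spearman rho 0.833), Xdh (0.821), Arhgef5 (0.814), 4931406P16Rik (0.809), Ly6a (0.805), Tagln2 (0.796), Stab1 (0.788), Clec2d (0.776), Itga6 (0.768) and Lpar6 (0.763). Every gene on the lists used here was left out before ranking, vascular markers and other interferon-induced genes among them. How closely those genes followed the 31 is therefore not given. The rho values describe libraries that share depth and composition, and carry no test.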
